A study of Mus musculus with 2 samples.

Results

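The genes described here are 45 members of the Nodal, BMP and TGF-beta signalling pathways of the mouse. They were taken by symbol from the deposited table of protein-coding gene counts, which lists 15127 genes. Of the 45 members, 40 were listed and 5 were not; of all annotated protein-coding genes 68.4% were listed. The members are 11 ligands, 8 antagonists, 3 proteases, 11 receptors and co-receptors, 8 Smads and 4 further intracellular regulators.

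The cells were of the pSM44 line, female mouse embryonic stem cells made from a cross between 129 and castaneous mice. In pSM44 the Xist gene of the 129 allele sits at its own locus behind a tetracycline-inducible promoter. All cells had been given doxycycline at 2 μg/mL for 24 h in serum-free 2i/LIF medium, and 2 poly(A) RNA libraries of this 1 group were sequenced. The medium supplies LIF and a pair of kinase inhibitors, and the labels name no added Nodal, activin or BMP. The table has 1 column of counts, and no source used here says whether it pools both libraries. Each gene therefore has 1 value with no replicate error, no untreated cells are compared, and no test between conditions was possible. In such bulk RNA, fewer cells that express a gene and less RNA per cell cannot be told apart. The intervals below are exact 95% Poisson intervals, which cover counting error only.

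The ligands of this family are secreted as precursors that proprotein convertases cut. A mature dimer then brings together type I and type II receptor kinases, and the type I kinase phosphorylates receptor Smads. Smad2 and Smad3 carry signals of Nodal, activin and TGF-beta, Smad1, Smad5 and Smad9 carry those of BMPs, and both sets join Smad4 to enter the nucleus. Nodal needs the co-receptor encoded by Tdgf1 (Cripto) and is held back by Lefty proteins. In the mouse embryo Nodal patterns the epiblast after implantation, while BMP4 can help to maintain cultured embryonic stem cells together with LIF.

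The table summed to 10017978 counts, so that a level of CPM 1, the count scaled by the file total, took 11 counts. As to the labelled cell type, 7 of 7 pluripotency marker genes lay above CPM 1, with Dppa5a highest at 4716 CPM and Zfp42 lowest at 473 CPM. Primed, endoderm, mesoderm and trophoblast markers ranged from 0.0998 CPM for Fgf5 to 12.7 CPM for Gata4. None of the 4 fibroblast markers Col3a1, Dcn, Lum and Postn was listed.

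Receptors, Smads and intracellular regulators were present almost throughout, whereas ligands and antagonists ran from abundant to nearly absent. At CPM 1 or more were 37 of the 45 members, against 55.0% of all annotated protein-coding genes. Of the 40 listed members these were 37, against 80.1% of all listed genes. The 37 comprised 7 of 11 ligands, 5 of 8 antagonists, 3 of 3 proteases, 10 of 11 receptors, 8 of 8 Smads and 4 of 4 regulators. Just under the threshold were Bmp2 at 0.998 CPM and Nog at 0.898 CPM, and the lowest member above it was Tgfb1 at 2.10 CPM. At CPM 10 or more were 31 of the 40 listed members, against 58.9% of all listed genes. Other minimums gave 39 of the 40 listed members at CPM 0.5 (85.1% of all listed genes), 33 at CPM 5 (66.7%) and 38 at 10 counts (80.8%).

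The members together held 20941 counts, or 0.209% of the total, and few genes carried most of them. Lefty2 with 3614 counts, Tdgf1 with 2523 and Gdf3 with 1455 made up 36.3% of the members' counts. These 3 genes encode an inhibitor of Nodal, its co-receptor and a Nodal-related ligand. Ski, Furin and Smad4 brought the share to 49.97%. At the other end were Tgfb2 with 4 counts, Nog with 9 and Bmp2 with 10.

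**Figure D1:**
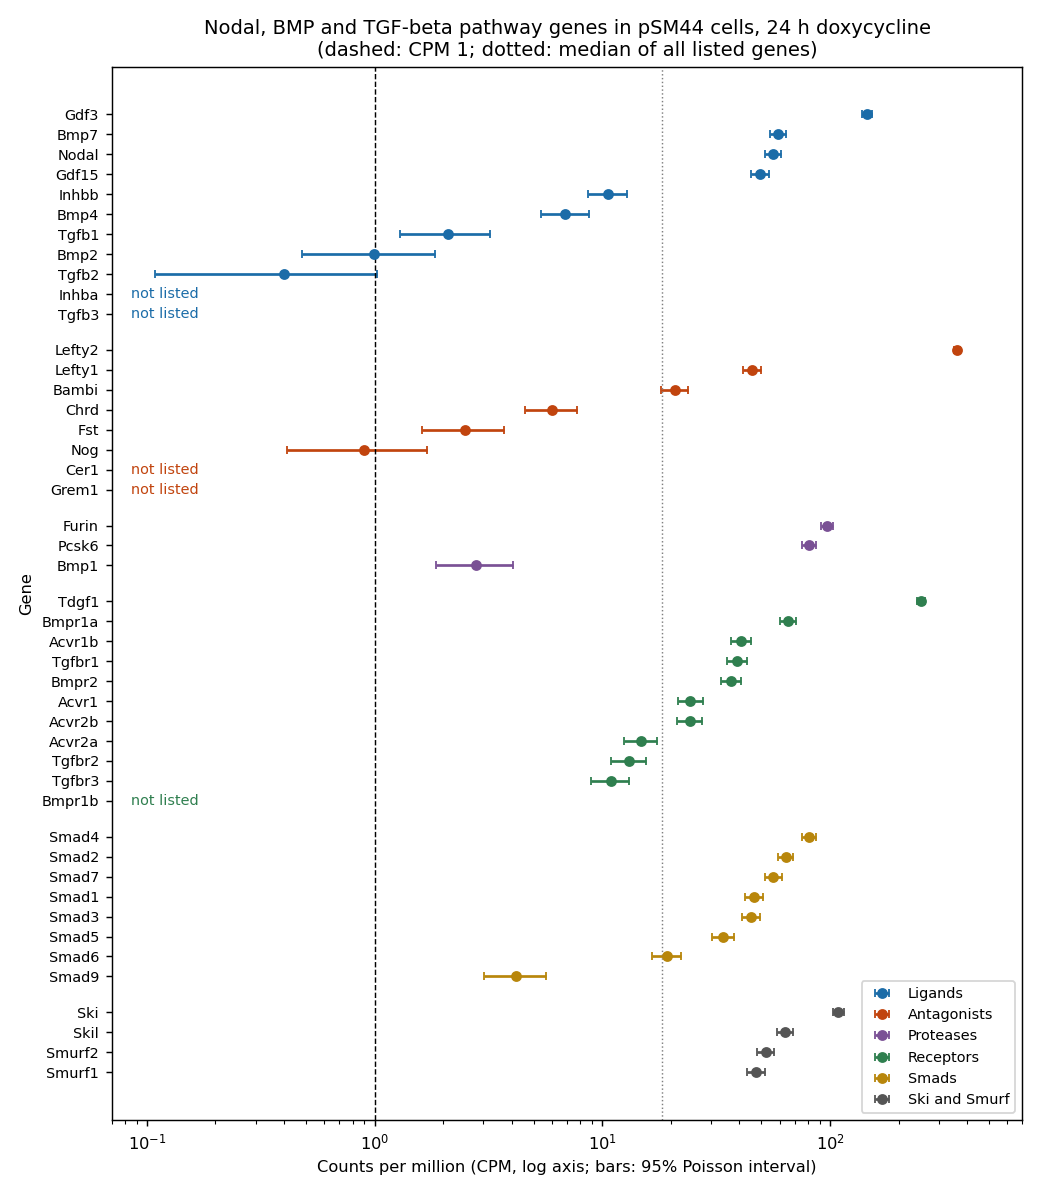
Level of each member in CPM on a log axis, grouped by role, with 95% Poisson intervals as bars; the dashed line marks CPM 1 and the dotted line the median of all listed genes, 18.3 CPM. Lefty2, Tdgf1 and Gdf3 lie at 361, 252 and 145 CPM, Bmp2, Nog and Tgfb2 lie below the dashed line, and 5 members are written as not listed.

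Of the 5 members that were not listed, Inhba and Tgfb3 lie under other genes. Inhba encodes an activin subunit, and its exons lie entirely under Gm48444 and B230303A05Rik, which are on the opposite strand. Tgfb3 encodes a TGF-beta ligand, and 56.4% of its exonic bases lie under Ttll5 and smaller genes, also on the opposite strand. No source used here gives the strand setting of the counting, and the part of this overlap in the missing rows was not tested. The Nodal and BMP antagonist gene Cer1, the BMP antagonist gene Grem1 and the type I receptor gene Bmpr1b were not listed either, and no other annotated gene covers their exons. The table starts at 1 count, and a gene missing from it is not thereby shown to be silent.

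The most abundant ligand gene was Gdf3, which carried most of the summed level of the Nodal and activin branch. Gdf3 encodes a Nodal-related ligand of pluripotent cells and had 1455 counts (145 CPM, interval 138 to 153). Nodal itself (chromosome 10, 61417972 to 61425338, GRCm38) had 564 counts (56.3 CPM, interval 51.7 to 61.1). Inhbb, which encodes another activin subunit, had 106 counts (10.6 CPM). To compare genes of different length, CPM was divided by the kilobases of annotated exon. On that scale Gdf3 stood at 59.9 and Nodal at 26.9 CPM per kb, a ratio of 2.23 (counting interval 2.02 to 2.46). Inhbb, at 2.49, lay below Bmp7 at 14.7 and Gdf15 at 26.6. Gdf3 stayed above Nodal by count alone, per kb of gene span and per kb of the longest coding transcript.

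The BMP ligands differed widely among themselves. Bmp7 had 590 counts (58.9 CPM, interval 54.2 to 63.8), close to Nodal before length is considered. Bmp4, the BMP most used in stem cell culture, had 69 counts (6.89 CPM, interval 5.36 to 8.72), and Bmp2 had 10 (0.998 CPM, interval 0.479 to 1.84). Per kb of exon Bmp7 exceeded Bmp4 by a ratio of 4.78 (counting interval 3.72 to 6.23) and Bmp2 by 52.2 (28.2 to 109). The ratio of Bmp7 to Bmp4 was 8.55 by count and 4.81 per kb of the longest coding transcript. Only per kb of gene span, introns included, did their order turn, with a ratio of 0.845. The span is 72310 bases for Bmp7 and 7150 bases for Bmp4.

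The listed TGF-beta ligands proper were close to the floor of the table. Tgfb1 had 21 counts (2.10 CPM, interval 1.30 to 3.20) and Tgfb2 had 4 (0.399 CPM, interval 0.109 to 1.02). Summed over listed genes, the levels per kb of exon were 89.3 for Nodal, Gdf3 and Inhbb, 18.0 for the 3 BMP genes and 0.485 for Tgfb1 and Tgfb2. Gdf15, a divergent family member induced by cell stress whose receptor lies outside the members, had 493 counts (49.2 CPM, interval 44.96 to 53.8). Gdf15 against Nodal depended on length: the ratio was 0.989 per kb of exon (counting interval 0.874 to 1.12), 0.874 by count (0.773 to 0.988), 1.19 per kb of the longest coding transcript and 2.10 per kb of gene span.

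Among the member antagonists, the genes of the Lefty inhibitors of Nodal were high. Those of the listed secreted inhibitors of BMPs and activin, Chrd, Nog and Fst, were low. Outside the members, the extracellular regulator genes Fstl1 and Twsg1 had 152 and 88.2 CPM. Lefty2 reached 361 CPM (interval 349 to 373) and was the highest of all members, at rank 429 of the listed genes. Lefty1 had 455 counts (45.4 CPM, interval 41.3 to 49.8). Chrd, which encodes the BMP-binding protein chordin, had 60 counts (5.99 CPM). Nog, for the BMP antagonist noggin, had 9 counts, and Fst, for the activin-binding protein follistatin, had 25 (2.50 CPM). Bambi, which encodes a receptor-like protein without a kinase domain, was between these with 209 counts (20.9 CPM). Exons of Chrd lie for 11.8% of their length under Thpo on the opposite strand, and the part of that overlap in its value was not tested.

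Lefty1 and Lefty2 are neighbouring copies on chromosome 1, with 35918 bases between them, and a read wholly inside a stretch in common cannot be assigned to either. Their longest coding transcripts in GENCODE M21 have 1620 and 2473 bases. Of the 90-base windows of these transcripts, 7.38% for Lefty1 and 4.74% for Lefty2 occurred without mismatch in the other gene.

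Lefty2 (chromosome 1, 180893108 to 180899103, GRCm38) was higher than Lefty1 (chromosome 1, 180935022 to 180938400) on every length scale tried. The ratio of counts was 7.94 (counting interval 7.20 to 8.78), and it was 5.35 per kb of exon, 5.20 per kb of the longest coding transcript and 4.48 per kb of gene span. Lefty2 also exceeded Nodal per kb of exon, by a ratio of 5.14 (counting interval 4.704 to 5.63). Lefty1 and Nodal were level within counting error per kb of exon, with a ratio of 0.961 (0.848 to 1.09). By count Lefty1 was lower, with a ratio of 0.807 (0.711 to 0.914), and per kb of gene span it was higher, with a ratio of 1.76. The summed level of both Lefty genes over that of Nodal was 6.10 per kb of exon, 7.21 by CPM and 9.63 per kb of gene span.

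The convertase genes were both well expressed, and the third protease gene was low. Furin, whose product cuts many precursors of the family, had 970 counts (96.8 CPM, interval 90.8 to 103). Pcsk6, which encodes another convertase able to process Nodal, had 810 counts (80.9 CPM, interval 75.4 to 86.6). Which of them stood higher depended on the length used. The ratio of Furin to Pcsk6 was 0.677 per kb of exon but 1.22 per kb of the longest coding transcript, 1.20 by count and 13.4 per kb of gene span. The counts of Pcsk6 are uncertain, as 32.2% of its exonic bases lie under other annotated genes, mainly Gm45213 on the same strand. Bmp1, which despite its name encodes a metalloprotease that cuts chordin and procollagens, had 28 counts (2.79 CPM).

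On the receptor side the co-receptor gene Tdgf1 stood far above the kinase genes. Tdgf1 (chromosome 9, 110939603 to 110946158, GRCm38) had 2523 counts (252 CPM, interval 242 to 262). Acvr1b, the type I receptor gene through which Nodal and activin signal, had 407 counts (40.6 CPM, interval 36.8 to 44.8). Tdgf1 over Acvr1b gave a ratio of 10.4 per kb of exon (counting interval 9.40 to 11.6). A processed pseudogene, Tdgf1-ps1, shares 6.29% of the 90-base windows of the Tdgf1 transcript. The other co-receptor gene, Tgfbr3, which encodes betaglycan and presents TGF-beta2, had 109 counts (10.9 CPM).

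The spread of the 4 listed type I receptor genes depended on the length scale. Bmpr1a, a BMP receptor, had 656 counts (65.5 CPM), Tgfbr1, which transduces TGF-beta, had 392 (39.1 CPM), and Acvr1, used by several BMPs, had 244 (24.4 CPM). Per kb of exon they ranged from 5.04 for Acvr1 to 10.3 for Bmpr1a, and the intervals of Bmpr1a and Acvr1b overlapped. Per kb of gene span they ran more widely, from 0.136 for Acvr1 to 1.03 for Acvr1b. The ratio of Bmpr1a to Acvr1b was 1.61 by count (counting interval 1.42 to 1.83) and turned to 0.690 per kb of gene span. The BMP pair Acvr1 and Bmpr1a summed to 15.4 per kb of exon and the pair Acvr1b and Tgfbr1 to 15.2. The sums were 18.4 and 16.0 per kb of the longest coding transcript but 0.844 and 1.66 per kb of gene span, so that their order turned.

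The type II receptor genes summed to a lower level than the type I genes. Bmpr2, specific to BMP-type ligands, had 368 counts (36.7 CPM), and Tgfbr2, the TGF-beta receptor, had 131 (13.1 CPM). The activin receptor genes Acvr2b and Acvr2a, which also bind BMPs, had 242 (24.2 CPM) and 148 (14.8 CPM). Summed per kb of exon, the 4 type II genes reached 12.4 and the 4 listed type I genes 30.5. The order was the same per kb of the longest coding transcript (14.7 for type II and 34.4 for type I) and per kb of gene span (1.36 and 2.50). Acvr2b exceeded Acvr2a by a ratio of 2.37 per kb of exon (counting interval 1.92 to 2.92). Acvr2b against Bmpr2 depended on length, with a ratio of 0.658 by count and 3.01 per kb of exon.

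The Tgfbr1 and Tgfbr2 genes were expressed although the listed ligand genes Tgfb1 and Tgfb2 were near the floor. Tgfb3 was not listed. Tgfbr2 was the lowest listed receptor gene per kb of exon, at 1.597, below the median of 3.80 for all listed genes. Tgfbr1 had 392 counts and Tgfb1 had 21, a ratio of 14.4 per kb of exon (counting interval 9.29 to 23.5). It was 7.05 per kb of the longest coding transcript and 5.47 per kb of gene span.

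The 250 bases before and 50 after the start of Tdgf1 are shown, since it was the highest gene on the receptor side. Entries in the RefSeq promoter table (GRCm38.p6) matched 30 of the 45 members by symbol. They were searched on both strands for TGTNNATT and for GGGNGTGG. The first is a loose form of a core bound by the Nodal effector Foxh1, with the middle letters left free. The second is a core bound by Klf factors. Capitals mark the matches, none of which overlap, in the Tdgf1 window, chr9:110946109-110946408 on the minus strand.
Tdgf1: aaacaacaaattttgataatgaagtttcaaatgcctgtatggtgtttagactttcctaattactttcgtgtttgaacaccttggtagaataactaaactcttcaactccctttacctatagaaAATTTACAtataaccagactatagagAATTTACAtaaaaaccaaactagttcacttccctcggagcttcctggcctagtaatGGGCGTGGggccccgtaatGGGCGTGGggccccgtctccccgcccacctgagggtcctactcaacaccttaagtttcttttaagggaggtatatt

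Both motifs occurred 2 times in this window. The Foxh1 letters, here on the reverse strand, began 127 and 101 bases before the annotated start and the Klf letters 45 and 26 bases before it. Among the 30 members, Tdgf1 alone held the Foxh1 letters, and 9 members held the Klf letters. Of all 32851 promoter windows in the table, 12.2% held the Foxh1 letters and 17.6% the Klf letters. These matches are letters in a window, those for Foxh1 of a loose motif that need not be a Foxh1 site, and were not measured as bound.

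All 8 Smad genes were listed, and apart from Smad9 they lay between 4.57 and 21.8 CPM per kb of exon. Smad4, the common partner, had 812 counts (81.1 CPM, interval 75.6 to 86.8) and was the highest by count and per kb of exon. Per kb of gene span Smad7 was above it, with a ratio of Smad4 to Smad7 of 0.630. Smad2 had 640 counts (63.9 CPM) and Smad3 450 (44.9 CPM), and both act for Nodal, activin and TGF-beta. Of the BMP Smads, Smad1 had 464 counts (46.3 CPM), Smad5 340 (33.9 CPM) and Smad9 42 (4.19 CPM, interval 3.02 to 5.67). Smad9 was below Smad1 by count, with a ratio of Smad1 to Smad9 of 11.0 (counting interval 8.05 to 15.5), and by at least 8.26 on the length scales tried.

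How the receptor Smads of the branches compared depended on the length scale. Per kb of exon Smad3 stood at 8.11, Smad1 at 7.40 and Smad2 at 7.28, with overlapping intervals, and Smad5 at 4.57. By count Smad2 exceeded Smad3 by a ratio of 1.42 (counting interval 1.26 to 1.61), and per kb of gene span by 2.28. The summed level of Smad1, Smad5 and Smad9 was 0.829 of that of Smad2 and Smad3. The counting interval of the ratio of summed counts, scaled to this value, was 0.757 to 0.908, which is approximate for levels summed per kb. The direction was not stable: the ratio was 1.09 per kb of the longest coding transcript and 1.29 per kb of gene span.

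The inhibitory Smad genes, which are induced by the pathway and block receptors, were both above CPM 10, as were 58.9% of all listed genes. Smad7, which acts on all branches, had 565 counts (56.4 CPM, interval 51.8 to 61.2), and Smad6, which acts mainly on BMP signalling, had 192 (19.2 CPM, interval 16.6 to 22.1). Their ratio per kb of exon was 2.09 (counting interval 1.77 to 2.47), and Smad7 was higher on all scales tried.

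The window around the start of Smad6 is shown because it was the only one of the 30 members' windows with the Smad palindrome GTCTAGAC. That palindrome occurred in 0.213% of all promoter windows, whereas the single box GTCT, which it contains, occurred in 88.0% of them and in 27 of the 30 members. The window is chr9:64022010-64022309 on the minus strand, and the palindrome, in capitals, begins 4 bases before the annotated start.
Smad6: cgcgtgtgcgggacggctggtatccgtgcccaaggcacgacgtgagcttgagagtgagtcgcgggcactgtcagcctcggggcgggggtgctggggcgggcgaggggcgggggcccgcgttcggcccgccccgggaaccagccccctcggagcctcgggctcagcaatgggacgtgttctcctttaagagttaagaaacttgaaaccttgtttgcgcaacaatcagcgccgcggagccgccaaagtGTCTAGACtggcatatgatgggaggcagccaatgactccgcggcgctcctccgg

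A further GC-rich site bound by BMP Smads, GGCGCC, was in 12 of the 30 members and in 11.9% of all windows. TATAAA, the TATA box, was in 4 of the 30 and in 13.6% of all windows. Some members have more than 1 window, so their shares are not on the same basis as those of single windows. The windows were not matched for base composition either, so the shares do not show enrichment of a site.

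The 4 intracellular regulators were all above CPM 10, as were 58.9% of all listed genes, and lay between 6.54 and 19.6 CPM per kb of exon. Ski, a corepressor that binds Smads, had 1091 counts (109 CPM, interval 103 to 116), and its relative Skil had 635 (63.4 CPM). The genes of the ubiquitin ligases that degrade Smads and receptors were nearly equal, with 523 counts for Smurf2 (52.2 CPM) and 475 for Smurf1 (47.4 CPM). The ratio of Smurf2 to Smurf1 was 1.13 per kb of exon, and its counting interval of 0.998 to 1.28 included 1.

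Set side by side per kb of exon, the roles with the lowest medians, ligands and antagonists, were also those with the widest ranges. Median levels were 7.34 for Smads, 7.98 for the regulators, 5.52 for receptors, 10.5 for proteases, 3.06 for ligands and 2.53 for antagonists, against 3.80 for all listed genes. Ligands ran from 0.0689 for Tgfb2 to 59.9 for Gdf3, antagonists from 0.530 for Nog to 138 for Lefty2, and receptors from 1.597 for Tgfbr2 to 96.1 for Tdgf1. Smads ran from 0.781 for Smad9 to 21.8 for Smad4. Above the median of all listed genes were 26 of the 40 listed members, against 50.0% of listed genes with a length. They were 7 of 8 Smads, 4 of 4 regulators, 6 of 10 receptors, 2 of 3 proteases, 4 of 9 ligands and 3 of 6 antagonists.

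**Figure D2:**
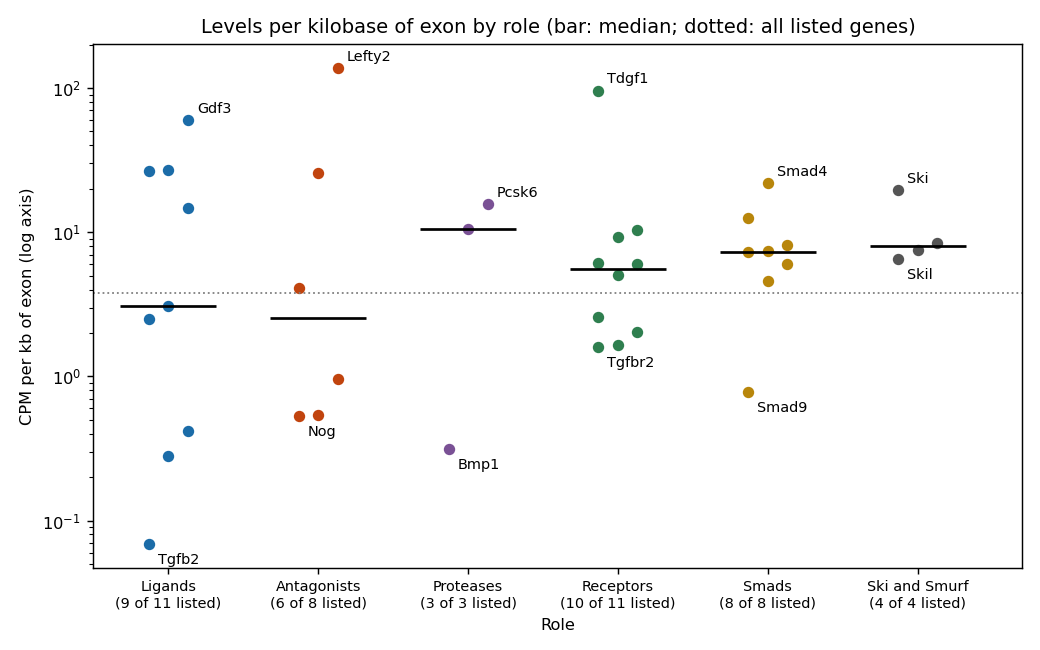
Level of each listed member in CPM per kb of exon on a log axis, 1 column of points per role, with the role median as a bar and the median of all listed genes, 3.80, as a dotted line. Ligands, antagonists and receptors are spread over wide ranges with Gdf3, Lefty2 and Tdgf1 at their tops, while 7 of 8 Smads and all 4 regulators lie above the dotted line.

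On the log2 scale with 0.1 added, the median of Smads exceeded that of ligands by 1.23 and that of receptors by 0.41. Receptors exceeded ligands by 0.82, and antagonists lay below ligands with a difference of -0.58. These differences are between medians over 6 to 10 listed genes and are descriptions; for an even number of genes the log2 median is the mean of the middle log values. Leaving out genes below CPM 1 put ligands above Smads (-0.99) and above receptors (-1.40), since the low ligands then drop out. Gene span as the length also put ligands above Smads (-0.23) and receptors (-0.94). Antagonists minus ligands had bounds of -1.19 to 0.027, with the members of the roles at opposite counting limits. That difference turned to 0.081 without a length scale, 0.38 per kb of gene span and 0.41 free of overlap. The lead of Smads over receptors kept its direction under every alternative tried, from 0.23 to 0.71. The minimum of CPM 1 and the limit on overlap removed no listed Smad or receptor, so these alternatives could not change it.

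Other genes of the pathway, outside the members, were also detected less in the ligand list than in the intracellular list. At CPM 1 or more were 5 of 20 other ligands, 5 of 8 other receptors, 13 of 20 other extracellular regulators, 19 of 20 other intracellular regulators and 15 of 16 target genes. In all these were 57 of 84, against the 55.0% of annotated genes given above. Of the 84, 15 were not listed, 10 of them ligands. Gdf1, which encodes a partner of Nodal, was one of these, and its exons lie entirely under other annotated genes. Of the other unlisted ligand genes, Inhbe, Inhbc, Gdf5 and Bmp5 had 100%, 98.7%, 60.1% and 46.7% of exonic bases under other genes. Gdf2, Gdf6, Mstn, Bmp3 and Bmp15 had none. The part of this overlap in the missing rows was not tested.

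Among the other ligands the highest per kb of exon were Bmp8a with 82 counts (8.19 CPM), Bmp6 with 116 (11.6 CPM) and Inha, for the inhibin alpha subunit, with 21 (2.10 CPM). Among the other receptors they were Eng, for the co-receptor endoglin, with 921 counts (91.9 CPM), Amhr2 with 153 (15.3 CPM) and Rgma, for a BMP co-receptor, with 158 (15.8 CPM). Cfc1, which encodes the relative of Cripto, had 1 count. Among extracellular regulators they were Tmeff1 with 1115 counts (111 CPM), Fstl1 with 1521 (152 CPM) and Twsg1, for a chordin-binding protein, with 884 (88.2 CPM).

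Per kb of exon the intracellular list was led by Strap at 68.8 (2129 counts), Fkbp1a, whose product binds type I receptors, at 67.8 (2620 counts), and Drap1, which encodes a repressor of Foxh1, at 50.9 (888 counts). The intervals of Strap and Fkbp1a overlapped. By count Usp9x, which encodes a deubiquitinase that acts on Smad4, was highest with 4506 counts (449.8 CPM). Usp9x lies on the X chromosome, and the part of the induced Xist in its level was not tested. Foxh1, the transcription factor that brings Smad2 and Smad3 to Nodal targets, had 481 counts (48.0 CPM). Cfc1, Gdf1, the unlisted ligand genes named with Gdf1, Usp9x and Foxh1 fall outside the rule for named genes. They were named after their values were seen.

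Dusp9 stood far above the other 15 target genes. Dusp9, which encodes a MAP kinase phosphatase and has been placed downstream of BMP in embryonic stem cells, had 3477 counts (347 CPM, interval 336 to 359). Like Usp9x, Dusp9 lies on the X chromosome, and the part of the induced Xist in its level was not tested. Gsc, a target of Nodal, had 146 counts (14.6 CPM), and Cdkn2b, a target of TGF-beta, had 132 (13.2 CPM). The classical BMP targets Id1, Id2 and Id3, named after their values were seen, had 43 counts (4.29 CPM), 81 (8.09 CPM) and 72 (7.19 CPM). Per kb of exon 6 of the 16 targets lay above the median of all listed genes, 3.80. Besides Dusp9 they were Gsc at 11.5, Cdkn2b at 9.48, Ccn2 at 7.54, T at 5.22 and Id3 at 4.01, of which Ccn2 and T were also named after their values were seen. Exons of Ccn2 lie for 44.9% of their length under Gm15270 on the opposite strand. With 1 group these levels do not measure the activity of a pathway.

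**Figure D3:**
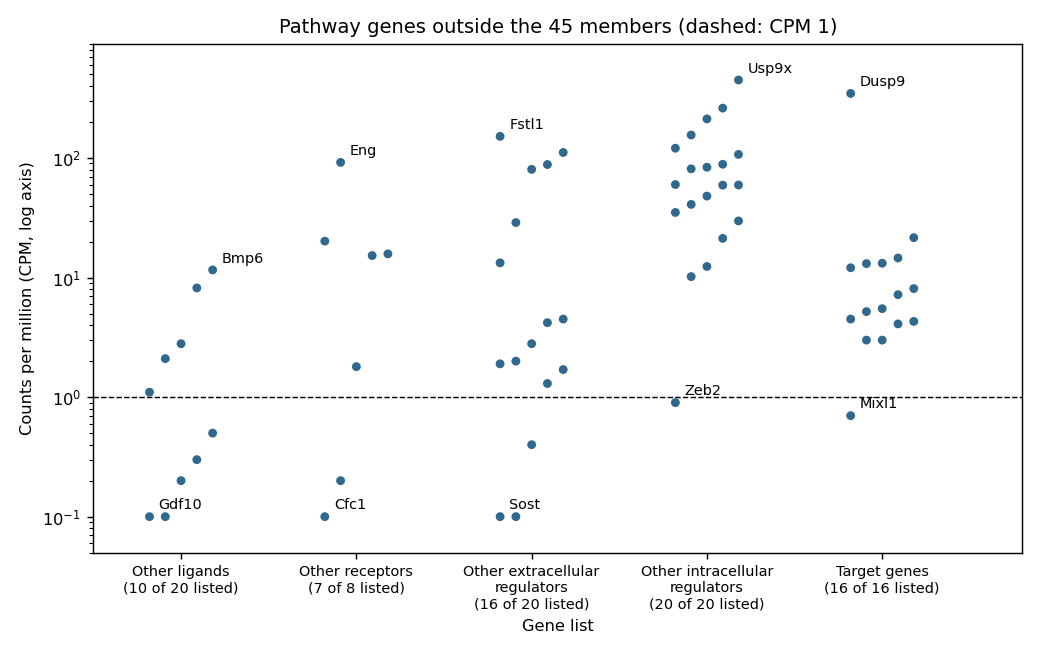
Level in CPM on a log axis of listed pathway genes that are not among the 45 members, in 5 lists, with the highest and lowest gene of each named and CPM 1 as a dashed line. Other ligands reach 11.6 CPM at most, while other intracellular regulators lie above the line except for Zeb2 at 0.898 CPM, and Dusp9 stands apart from the other targets at 347 CPM.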

How the data were processed

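Poly(A) RNA of 2 libraries of 1 group was measured. The authors deposited raw counts per protein-coding gene symbol in 1 column with values from 1 to 117610. The submitters' processing notes name Subread 1.6.4 with featureCounts, HISAT2, Trimmomatic 0.38, SAMtools and the build GRCm38.p6. Annotation release, strand setting and counted feature are not given in those notes or labels.

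CPM is the count divided by the file total, and CPM per kb divides it by the union of exons of GENCODE M21 (GRCm38). Symbols matched M21 for 14896 genes and through RefSeq synonyms for 156 more, and the 75 unmatched held 0.131% of the counts. M21 has 21992 distinct protein-coding symbols, and the longest model stood for a repeated symbol. Logs used log2(level + 0.1). Ratios of counts have exact Clopper-Pearson (conditional binomial) 95% intervals, and other intervals are Poisson; they hold counting error alone, as PCR copies were not marked by molecular identifiers. The precision follows from 10017978 counts in all.

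Members, roles and lists were chosen with earlier results of these data known. Named genes were all members, the 3 highest per kb of exon in each other pathway list, and the highest and lowest markers, with exceptions stated. The alternatives were CPM minimums of 0.5 and 5, 10 counts, no length scale, gene span, a pseudocount of 1, genes at CPM 1 or more, unlisted members at 0 and members with at most 0.1 of exonic bases under another gene. The longest coding transcript was added as a length after seeing the data. Functions were tested on simulated counts. The scripts ran on Python 3.11.15 with pandas 2.3.3, scipy 1.17.1, numpy 2.4.6 and, for figures, matplotlib 3.10.9. A sequence comparison of one gene pair is not reported here.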

Additional observations from a re-analysis of the deposited data

How the results depend on the processing

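With 1 value per gene, leaving out a library was not possible, and no paired analysis was possible because the table has 1 column and 1 group. Of 86 values under alternatives, 36 moved by less than counting error or, for counts of genes, by less than 1.5 times, 32 moved further and 18 changed direction. Detected members numbered 33 at CPM 5, 38 at 10 counts, 39 at CPM 0.5 and 35 among members free of overlap. At CPM 5 the other ligands fell to 2 and the other extracellular regulators to 6.

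The levels of roles against all listed genes (log2, per kb of exon) were -0.30 for ligands, -0.89 for antagonists, 1.45 for proteases, 0.52 for receptors, 0.93 for Smads and 1.05 for regulators. Without a length scale they were -0.78 for ligands, 2.14 for proteases, 0.71 for receptors, 1.32 for Smads and 1.65 for regulators. Per kb of gene span they were 0.58 for ligands, 0.96 for antagonists, -0.43 for proteases, -0.37 for receptors, 0.35 for Smads and 0.53 for regulators. A pseudocount of 1 gave -0.60 for antagonists, 1.27 for proteases, 0.80 for Smads and 0.90 for regulators. Among genes at CPM 1 or more they were 1.19 for ligands, -0.61 for antagonists, 0.72 for proteases, -0.20 for receptors, 0.21 for Smads and 0.32 for regulators. With unlisted genes at 0, which lowers the median of all genes, they were 1.75 for ligands, 0.10 for antagonists, 3.79 for proteases, 2.74 for receptors, 3.27 for Smads and 3.39 for regulators. Free of overlap they were -0.061 for antagonists, -1.06 for proteases (2 genes), 0.35 for receptors, 0.76 for Smads and 0.88 for regulators.

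Receptors minus ligands came to 1.49 without a length scale, -0.94 per kb of gene span and -1.40 at CPM 1 or more. Antagonists minus ligands came to 0.081 without a length scale, 0.38 per kb of gene span, -1.81 at CPM 1 or more, -1.65 with unlisted members at 0 and 0.41 free of overlap. Smads minus ligands came to 2.10 without a length scale, -0.23 per kb of gene span and -0.99 at CPM 1 or more. Smads minus receptors was 0.71 per kb of gene span. The ratio of BMP Smads to Smad2 and Smad3 was 1.29 per kb of gene span and 1.09 per kb of the longest coding transcript. That of both Lefty genes to Nodal was 7.21 without a length scale and 9.63 per kb of gene span. The minimum and the unlisted genes act by changing which genes enter, and for the other changes the cause was not tested. Depth limits Tgfb2, Nog and Bmp2, whose counts of at most 10 leave wide intervals.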
